A study of Mus musculus with 18 samples.

Results

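The Wnt ligands, their Frizzled and Lrp receptors and the secreted proteins that hold them in check were followed in mouse left ventricle over the first 72 h after a myocardial infarction. The genes were chosen by name: every Wnt, Fzd, Sfrp and Dkk gene of the count table, with Frzb, Wif1, Lrp5, Lrp6, Rspo1, Rspo2, Rspo3 and Axin2, kept where the counts of the 18 libraries summed to 20 or more. Of 30583 genes in the table, 45 matched by name and 35 reached that sum: 13 Wnt ligands, 9 Frizzled receptors, the coreceptors Lrp5 and Lrp6, 5 secreted Frizzled-related proteins (Sfrp1, Sfrp2, Sfrp4, Sfrp5 and Frzb), 2 Dickkopf proteins (Dkk2 and Dkk3), Wif1, 2 R-spondins (Rspo1 and Rspo3) and Axin2. The sum left out Dkk1, Dkk4, Fzd10, Rspo2, Wnt3, Wnt3a, Wnt7b, Wnt8a, Wnt8b and Wnt10a. The members just inside the limit were Wnt16 with 25 counts, Wnt1 with 28 and Rspo3 with 31, and the genes just outside it were Fzd10 with 15 and Wnt7b with 12.

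The mice were 18 males, labelled C57BL/6JR and 12 weeks old, in 6 groups of 3, with 1 library per mouse. In 5 groups the left anterior descending coronary artery was tied and the heart was taken later, after 10 min in the first group and after 1, 6, 24 or 72 h in the others. The sham group, given as 0 h, went through the same surgery with the suture passed and left untied, so every mouse was anaesthetised and had its chest opened. RNA came from the myocardium of the left ventricle, infarcted in the tied groups. The labels also give cardiomyocytes as the cell type, but describe no separation of cells, and markers of fibroblasts, endothelium and macrophages were present in every library, so the samples are treated here as whole tissue. In whole tissue, fewer cells of a type and less RNA per cell cannot be told apart.

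Wnt proteins are lipid-modified secreted ligands that bind Frizzled receptors. Together with the coreceptors Lrp5 and Lrp6 they stop the destruction of beta-catenin, which then activates target genes with TCF/LEF factors, Axin2 among them; other Wnt proteins, Wnt5a and Wnt11 in particular, act mostly through branches that do not need beta-catenin. Secreted Frizzled-related proteins and Wif1 bind Wnt ligands outside the cell, most Dickkopf proteins block Lrp5 and Lrp6, and R-spondins protect Frizzled receptors from removal at the membrane. The pathway is largely quiet in the adult heart and is known to be engaged during scar formation.

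The libraries held between 18199172 and 25062351 counts. Levels are given as CPM, counts relative to library size, after scaling by the trimmed mean of M-values (TMM), which matches libraries on the bulk of their genes, and differences as log2 fold changes with their standard error (SE) from edgeR's quasi-likelihood test. A gene is said to rise or fall where the p-value, adjusted by Benjamini-Hochberg over all 16311 genes tested, was under 0.05. Of the 35 members, 30 were tested; Rspo3, Wnt1, Wnt2, Wnt7a and Wnt16 had too few counts and are described by their counts. The scaling matters at the late times: when library totals replaced TMM, the all-gene median of the log2 fold changes against sham moved from 0.03 to 0.61 at 72 h and from 0.01 to 0.20 at 24 h, so small falls at these times depend on it. One library stood apart: 6 h replicate 1 carried atrial transcripts, with 42.6 CPM of Sln, 49.3 of Myl7 and 59.1 of Myl4, where the other 17 libraries had at most 0.474, 1.1 and 2.62. Calls against sham at 6 h are therefore given with and without it.

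Calls among the members came at 6 h and later. At 10 min no member passed the test, against 0.0736% of all genes (0.0307% higher and 0.0429% lower). At 1 h again none did, against 0.294% (0.288% higher and 0.00613% lower). Beside these counts of 0, edgeR gave an unadjusted p under 0.05 for 4 of the 30 members at 10 min (7.01% of all genes) and for 2 at 1 h (5.51% of all genes), and DESeq2 called none at either time. The closest was Fzd3, whose log2 fold change was 1.04 ± 0.26 (SE) at 10 min (edgeR adjusted p = 0.224) and 0.92 ± 0.26 at 1 h (adjusted p = 0.314). Fzd3 passed at 10 min when the fit held only the 6 libraries compared (adjusted p = 0.0423) and at 1 h without 1 h replicate 3 (adjusted p = 0.045).

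At 6 h, 6 of 30 members passed against 28.4% of all genes: Frzb, Fzd1, Fzd8 and Wnt11 rose (16.3% of all genes were higher), and Fzd2 and Wnt5a fell (12.2% were lower). With library totals 3 were higher and 2 lower. Without the library that carried atrial transcripts the rises of Frzb, Fzd1 and Fzd8 still passed, while Fzd2, Wnt5a and Wnt11 did not. At 24 h, 14 of 30 passed against 43.8% of all genes, with 4 higher (23.7% of all genes were higher) and 10 lower (20.2% were lower). At 72 h, 21 of 30 passed against 66.4% of all genes, with 13 higher and 8 lower, where 34.2% of all genes were higher and 32.2% lower. At 24 h and 72 h the share of members called lay near that of all genes, and at 6 h it was below it. The split by direction depended on the scaling: with library totals, 6 members were higher and 3 lower at 24 h, and 19 were higher and 4 lower at 72 h. The median log2 fold change of the 30 members was -0.02 at 6 h (-0.01 over all genes), -0.29 at 24 h (0.01 over all genes) and 0.24 at 72 h (0.03 over all genes). Over all 5 times, 26 of 30 members passed at 1 or more of them, beside 77.9% of all genes. The first call came at 6 h for 6 (28.1% of all genes), at 24 h for 9 (25.2%) and at 72 h for 11 (24.2%), and 17 of 30 passed with a change of at least 2-fold, beside 40% of all genes. Dkk2, Sfrp4, Wnt4 and Wnt10b passed the filter on low counts only through the 72 h libraries, where they were highest, so nothing is read from their part in these counts.

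**Figure D1:**
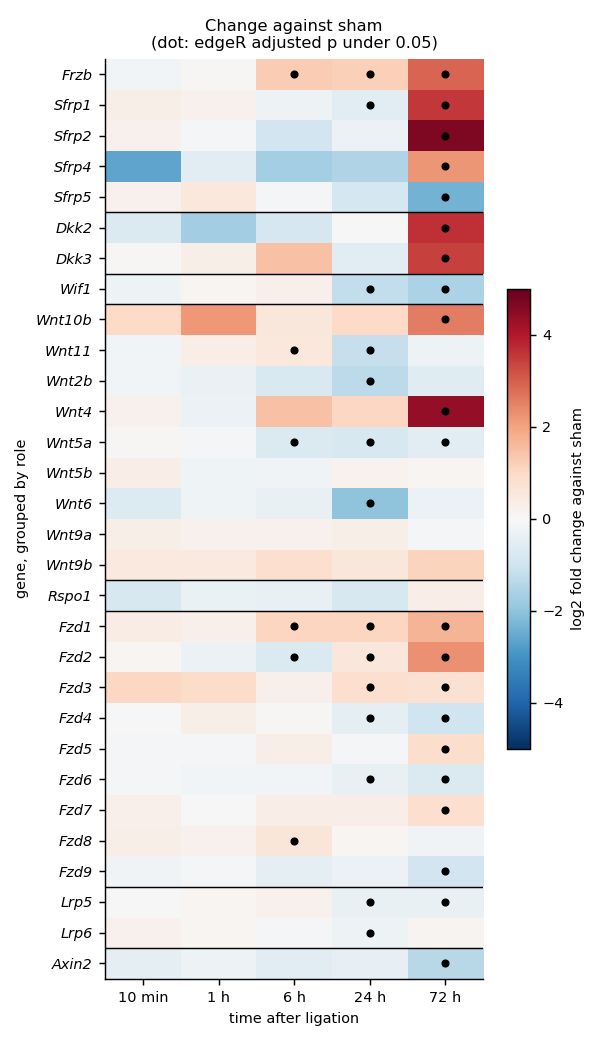
Log2 fold change against sham of the 30 tested members (rows, grouped by role) at the 5 times after ligation (columns); red is higher, blue is lower, and a black dot marks an edgeR adjusted p under 0.05. No dots stand at 10 min and 1 h. The column for 6 h has 6, that for 24 h has 14 and that for 72 h has 21; the deepest colours are the rises of Sfrp2, Wnt4, Dkk2, Sfrp1 and Dkk3 at 72 h.

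The sequences just upstream of 3 of these genes are shown because the genes moved far and in opposite directions at 72 h. Sfrp2 and Dkk2 are secreted antagonists that rose, and Axin2 is the pathway's feedback target and fell. Dkk2 was tested only through the 72 h libraries, where it was highest, so nothing is read from its rise, from its choice for display or from the match in its window. Each line holds the 250 bases before the gene's start, 5′ to 3′ on the gene's strand (all 3 lie on the plus strand), from RefSeq on GRCm38.p6; capitals mark the core letters CTTTG (or CAAAG on the other strand) that TCF/LEF factors bind. The windows are chr3:83766071-83766320 for Sfrp2, chr3:132085042-132085291 for Dkk2 and chr11:108920099-108920348 for Axin2.
Sfrp2: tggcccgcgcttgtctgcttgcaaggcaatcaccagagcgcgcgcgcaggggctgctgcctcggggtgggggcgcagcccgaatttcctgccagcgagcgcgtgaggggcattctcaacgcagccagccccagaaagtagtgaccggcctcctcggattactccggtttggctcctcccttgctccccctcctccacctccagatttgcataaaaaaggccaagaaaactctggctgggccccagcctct
Dkk2: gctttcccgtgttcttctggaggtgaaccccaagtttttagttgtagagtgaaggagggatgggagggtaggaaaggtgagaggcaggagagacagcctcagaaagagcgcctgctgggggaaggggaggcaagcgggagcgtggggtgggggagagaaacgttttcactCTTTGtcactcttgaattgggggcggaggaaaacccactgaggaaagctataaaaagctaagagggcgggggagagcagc
Axin2: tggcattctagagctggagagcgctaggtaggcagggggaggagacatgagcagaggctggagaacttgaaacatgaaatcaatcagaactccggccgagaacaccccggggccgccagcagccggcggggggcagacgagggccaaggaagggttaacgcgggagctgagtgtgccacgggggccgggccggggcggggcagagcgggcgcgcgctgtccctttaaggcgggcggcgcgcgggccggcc
The core occurred once in the Dkk2 window and not in the other two; it is short, and 48.6% of 32851 RefSeq promoter windows of this length held it on one strand or the other. Of the 24 members with a RefSeq window, 9 held the core. A longer form, CTTTGAT, which contains the core, was in 2 of the 24 (Wnt11 and Wnt5b) and in 3.21% of all windows, while CTTTGAA, which also contains it, was in none of the 24 and in 4.46% of all. The letters TATAAA were in 4 of the 24, Dkk2 among them, and in 12.4% of all windows. The members' windows had a median of 66.8% G and C, against 52.4% over all windows. These matches describe letters in a window and not bound sites.

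The secreted antagonists changed most. At 72 h Sfrp1, Sfrp2, Frzb and Dkk3 rose, with log2 fold changes from 2.91 for Frzb to 4.68 for Sfrp2, while Sfrp5 and Wif1 fell. Over all genes, 34.2% were higher and 32.2% lower. Sfrp4 and Dkk2 were also called higher. Both passed the filter on low counts only through the 72 h libraries, so nothing is read from that. Sfrp1, which binds Wnt proteins, had 11.5, 11.8 and 16.2 CPM in the sham hearts, 14.3, 17.8 and 15.8 at 10 min and 13.2, 17.6 and 14.6 at 1 h. Sfrp1 then had 10.3, 12.7 and 10.4 at 6 h, 10.4, 9.44 and 6.6 at 24 h and 136, 166 and 160 at 72 h. All 3 hearts at 72 h stood far above every other heart. The log2 fold change at 72 h was 3.54 ± 0.17 (SE, edgeR adjusted p = 1.13e-11). At 24 h all 3 hearts lay below the sham hearts, with a log2 fold change of -0.58 ± 0.17 (adjusted p = 0.00981), a call lost without sham replicate 3 (-0.40, adjusted p = 0.0809), without 24 h replicate 3 (-0.41, adjusted p = 0.0531), with library totals (-0.39, adjusted p = 0.0928) and with the 6 libraries alone (adjusted p = 0.0576).

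Sfrp2, another Wnt-binding antagonist, had 2.22, 1.87 and 3.91 CPM in the sham hearts, 2.43, 3.4 and 3.52 at 10 min and 2.41, 3.02 and 2.16 at 1 h. Sfrp2 then had 1.49, 0.861 and 1.81 at 6 h, 1.94, 3.5 and 0.928 at 24 h and 54.6, 59.7 and 93 at 72 h. No heart before 72 h reached 4 CPM. Its rise was the steepest of the tested members, at 4.68 ± 0.37 (adjusted p = 2.77e-08).

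Frzb, also called Sfrp3, rose earlier than the rest of its family. It had 5.41, 2.85 and 5.02 CPM in the sham hearts, 5.23, 3.19 and 3.85 at 10 min and 4.73, 3.97 and 5.07 at 1 h. Frzb then had 10.8, 11 and 9.96 at 6 h, 7.85, 9.73 and 13.2 at 24 h and 31.5, 38.6 and 30.3 at 72 h. From 6 h on every heart exceeded every sham heart, first by about the same step at 6 h and 24 h and then by a larger one. The log2 fold changes were 1.25 ± 0.22 at 6 h (adjusted p = 5.29e-04), 1.20 ± 0.22 at 24 h (adjusted p = 3.71e-04) and 2.91 ± 0.22 at 72 h (adjusted p = 3.4e-09). Without 6 h replicate 1 the 6 h value was 1.24 (adjusted p = 0.00241).

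Sfrp4 was scarce throughout, at 0.506, 0.0519 and 0.178 CPM in the sham hearts, 0.125, 0 and 0 at 10 min and 0.193, 0.178 and 0.117 at 1 h. Sfrp4 then had 0.179, 0 and 0.0533 at 6 h, 0.0432, 0.177 and 0 at 24 h and 0.852, 1.95 and 0.636 at 72 h. The 72 h hearts lay above all others, and 72 h replicate 2 was the highest. Its log2 fold change at 72 h was 2.21 ± 0.68 (adjusted p = 0.0078), which fell to 1.58 without that library (adjusted p = 0.0696). The libraries of the sham group held 15 Sfrp4 counts together and those at 72 h held 111. Sfrp4 passed the filter on low counts only through the 72 h libraries, so nothing is read from its test.

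Dkk3, a Dickkopf relative whose action on Lrp5 and Lrp6 is less settled than that of the others, had 3.29, 1.61 and 3.29 CPM in the sham hearts, 3.05, 2.77 and 2.74 at 10 min and 3.33, 3.79 and 2.92 at 1 h. Dkk3 then had 20.1, 1.44 and 1.44 at 6 h, 2.29, 2.16 and 0.928 at 24 h and 29.5, 29.5 and 28.1 at 72 h. The single high value at 6 h came from the library that carried atrial transcripts; the part of these in it was not tested. At 72 h the 3 hearts were close together and above all others, with a log2 fold change of 3.40 ± 0.77 (adjusted p = 0.00147); DESeq2 gave this gene no adjusted p.

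Dkk2, which binds Lrp5 and Lrp6, had 0.202, 0.311 and 0.267 CPM in the sham hearts, 0.0623, 0.084 and 0.335 at 10 min and 0, 0.118 and 0.117 at 1 h. Dkk2 then had 0.238, 0.191 and 0 at 6 h, 0.216, 0.106 and 0.516 at 24 h and 3.19, 3.81 and 2.9 at 72 h. It was near the limit of detection until 24 h and clearly present in each heart at 72 h, with a log2 fold change of 3.64 ± 0.53 (adjusted p = 7.25e-06). The counts behind it were 16 in the sham group and 317 at 72 h. Dkk2 passed the filter on low counts only through the 72 h libraries, so nothing is read from this test. The best known member of the family, Dkk1, had 5 counts in all 18 libraries and was below the minimum.

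Sfrp5 and Wif1 went the other way. Sfrp5, a Wnt5a-binding antagonist described in the heart's outer layer and in fat, had 0.809, 2.07 and 1.42 CPM in the sham hearts, 1.81, 1.6 and 1.56 at 10 min and 1.11, 2.66 and 2.39 at 1 h. Sfrp5 then had 1.13, 1 and 1.92 at 6 h, 1.21, 0.424 and 0.722 at 24 h and 0.473, 0.183 and 0.159 at 72 h. All 3 hearts at 72 h lay below all sham hearts, and the log2 fold change was -2.38 ± 0.50 (adjusted p = 3.58e-04). Wif1, the Wnt inhibitory factor, had 2.93, 2.39 and 2.31 CPM in the sham hearts, 1.62, 2.69 and 2.01 at 10 min and 2.51, 3.32 and 2.39 at 1 h. Wif1 then had 3.28, 4.11 and 1.65 at 6 h, 1.6, 0.778 and 0.825 at 24 h and 1.23, 0.548 and 0.764 at 72 h. It was below every sham heart from 24 h, by -1.25 ± 0.36 at 24 h (adjusted p = 0.00928) and -1.58 ± 0.36 at 72 h (adjusted p = 7.64e-04); the 72 h call held with library totals (adjusted p = 0.0154).

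**Figure D2:**
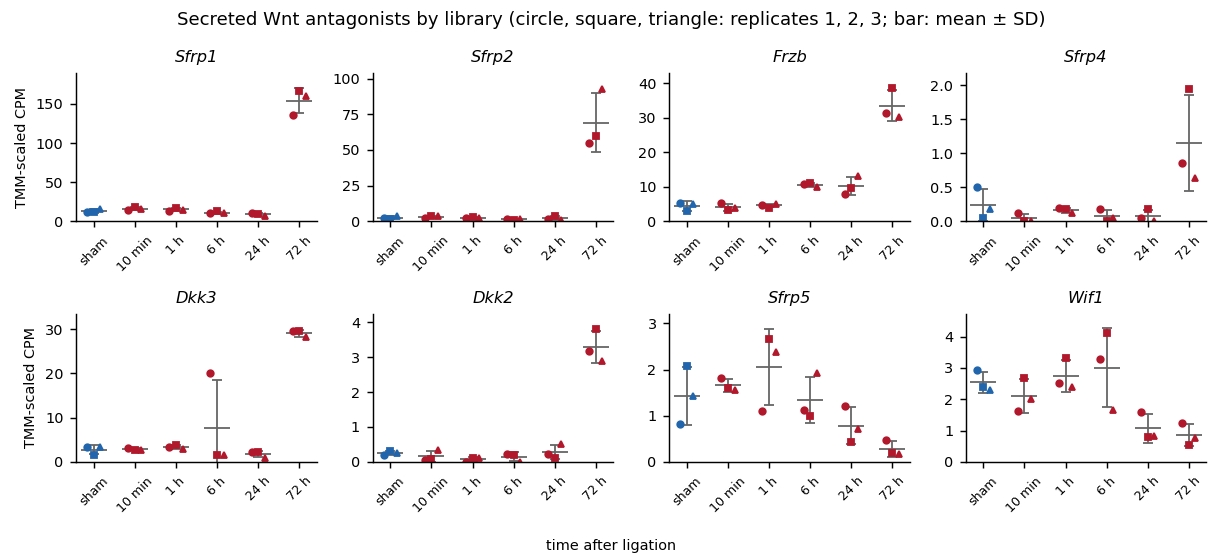
TMM-scaled CPM (linear axis from 0, its own scale in each panel) of the 8 secreted antagonists in each library by time after ligation; circles, squares and triangles are replicates 1, 2 and 3, and the bar is the mean ± SD of 3 hearts. Sfrp1, Sfrp2, Frzb, Sfrp4, Dkk3 and Dkk2 were highest at 72 h, Sfrp5 and Wif1 were lowest there on average, and Dkk3 had 1 high library (20.1 CPM) at 6 h.

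Levels of different genes were compared per length, as TMM-scaled CPM per kilobase. On this scale the 8 antagonists together came to 8.36 ± 1.39 (SD, n = 3) in the sham hearts, 7.65 ± 0.455 at 24 h and 87.9 ± 11.0 at 72 h. The 13 Wnt ligands together came to 7.9 ± 0.2 in the sham hearts, 6.59 ± 0.778 at 24 h and 8.47 ± 0.81 at 72 h. Antagonist transcripts were thus about level with ligand transcripts before and stood well above them at 72 h. The ratio of the 2 sums, which does not depend on library scaling, was 1.06 ± 0.204 in the sham hearts, lay between 0.888 and 1.98 in the tied hearts up to 24 h, and was 10.5 ± 2.12 at 72 h, between 8.17 and 12.3. The highest ratio before 72 h, 1.98, was in the 6 h group, whose sum includes the high Dkk3 value. Both sums include genes that are members, or passed the filter on low counts, only through the 72 h libraries. Their mean shares of the ligand sum at 72 h were 10.8% for Wnt4, 2.6% for Wnt10b, 1.25% for Wnt7a, 0.894% for Wnt1 and 0.599% for Wnt16. In the antagonist sum Dkk2 made up 1.02% and Sfrp4 0.316%. The sums and the ratio without these genes were not computed. The 2 largest contributors at 72 h were Sfrp1 with 40.2% ± 3.05 of the antagonist sum and Sfrp2 with 36.1% ± 6.70, from 36.0% ± 3.16 and 14.5% ± 3.44 in the sham hearts. Wif1 went from 12.8% ± 2.77 to 0.411% ± 0.217 and Sfrp5 from 9.4% ± 5.30 to 0.173% ± 0.132. With 3 hearts against 3 an exact permutation test of a single sum or share cannot go below p = 0.10, so these are given as values.

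Markers of cell types moved in the same samples, by list. At 72 h the summed fibroblast markers went from between 754 and 809 CPM in the sham hearts to between 4710 and 5770, with 8 of 8 higher. Their log2 fold changes were uneven, from 0.32 for Dcn to 5.58 for Col1a1, with a median of 1.67. The sum for activated fibroblasts and scar went from between 174 and 233 CPM to between 3740 and 4770, with 7 of 7 higher. Monocyte and macrophage markers were higher in 6 of 6, neutrophil markers in 4 of 6, lymphocyte markers in 3 of 3 tested, epicardial and mesothelial markers in 3 of 6 and proliferation genes in 4 of 4. Cardiomyocyte markers went from between 56900 and 62100 CPM to between 15000 and 19700, with 8 of 8 lower. Pericyte and smooth muscle markers were lower in 6 of 6 and endothelial markers in 5 of 7; with library totals these counts were 4 of 6 and 1 of 7, with 2 endothelial markers higher. Red blood cell markers were lower in 3 of 3 (1 with library totals), the atrial list was higher in 1 of 3 tested and the 1 adipocyte marker tested did not pass. At 24 h the fibroblast sum was between 613 and 813 CPM, with 3 markers higher and 3 lower, and that of the activated genes between 577 and 1100, with 5 higher and 1 lower. Also at 24 h, 5 of 8 cardiomyocyte, 4 of 6 pericyte and smooth muscle and 3 of 7 endothelial markers were lower (with library totals 2 endothelial markers were higher and 1 lower), and 6 of 6 macrophage and 5 of 6 neutrophil markers were higher. At 6 h the neutrophil markers were higher in 6 of 6, with a sum between 97.0 and 737 CPM. The markers of these lists at 0 in 1 or more libraries were Lrrn4, Muc16 and Upk1b of the epicardial list, Retnlg and Ly6g of the neutrophil list, Cd3d, Ncr1 and Nkg7 of the lymphocyte list, Sln, Myl7 and Ccnb1, and all 3 of the adipocyte list. The part of cell makeup in the members' changes was not tested.

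The Wnt ligands are given first as a sum and then 1 by 1. The sum itself depended on the scaling: with TMM the 72 h hearts were near the sham hearts, as given above, while with library totals it was 7.32 ± 0.0536 CPM per kilobase in the sham hearts and 11.8 ± 0.880 at 72 h. Per length, the sham ventricle held mostly Wnt11 (26.4% ± 2.95 of the ligand sum), Wnt9a (25.8% ± 1.59), Wnt5a (18.9% ± 0.519) and Wnt5b (18.6% ± 2.78), and the first 2 and the last 2 of these did not differ beyond their spread. Of 9 tested ligands, 2 rose and 1 fell at 72 h, where 34.2% of all genes were higher and 32.2% lower. The 2 that rose were Wnt4 and Wnt10b. Both passed the filter on low counts only through the 72 h libraries, so nothing is read from their part in this count. The 1 that fell was Wnt5a, at 0.01 with library totals. At 24 h 4 fell, beside 20.2% of all genes: Wnt11, Wnt6, Wnt5a and Wnt2b. With library totals Wnt5a and Wnt2b did not pass.

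Wnt4, a ligand with roles in kidney and gonad development, had 0.101, 0.311 and 0.133 CPM in the sham hearts, 0.249, 0.21 and 0.168 at 10 min and 0.145, 0.296 and 0 at 1 h. Wnt4 then had 0.358, 0.909 and 0.213 at 6 h, 0.388, 0.46 and 0.258 at 24 h and 5.11, 2.41 and 4.17 at 72 h. It was nearly silent until 24 h, and each heart at 72 h was above all earlier ones. The log2 fold change was 4.40 ± 0.54 (adjusted p = 9.71e-07), on 11 counts in the sham group and 372 at 72 h. Wnt4 passed the filter on low counts only through the 72 h libraries, so nothing is read from this test. Its share of the ligand sum went from 0.547% ± 0.334 in the sham hearts to 10.8% ± 3.18 at 72 h, and nothing is read from this share for the same reason. Wnt10b, an activator of the beta-catenin branch, had 0.152, 0.0519 and 0.0444 CPM in the sham hearts, 0.0623, 0.252 and 0.168 at 10 min and 0.435, 0.533 and 0.175 at 1 h. Wnt10b then had 0.179, 0.144 and 0.0533 at 6 h, 0.302, 0.106 and 0.103 at 24 h and 0.284, 0.487 and 0.732 at 72 h. It rose at 72 h by 2.54 ± 0.66 (adjusted p = 0.00235) on 5 counts in the sham group and 48 at 72 h. However, 2 hearts at 1 h were about as high as those at 72 h. Wnt10b too passed the filter only through the 72 h libraries, so nothing is read from its test.

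Wnt11, a ligand of the branch that does not need beta-catenin and a factor in heart development, moved one way and then the other. It had 9.15, 7.62 and 9.06 CPM in the sham hearts, 5.91, 9.83 and 7.93 at 10 min and 10.7, 10.7 and 11.3 at 1 h. Wnt11 then had 12.7, 9.57 and 14.7 at 6 h, 4.7, 3.47 and 3.4 at 24 h and 8.3, 6.97 and 6.27 at 72 h. The 3 hearts at 24 h were the lowest of all 18, and those at 72 h overlapped the sham hearts. At 24 h the log2 fold change was -1.16 ± 0.20 (adjusted p = 1.79e-04). The rise at 6 h was small, 0.51 ± 0.19 (adjusted p = 0.0464), and was lost without 6 h replicate 1 (0.49, adjusted p = 0.117), without 6 h replicate 3 (0.37, adjusted p = 0.191), without any 1 of the sham libraries and under most other settings. From 24 h to 72 h Wnt11 rose again by 0.89 ± 0.19 (adjusted p = 8.29e-04).

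Wnt5a, a ligand of that same branch, had 12, 11.5 and 11.5 CPM in the sham hearts, 10.7, 13.4 and 12.3 at 10 min and 12.9, 11.6 and 9.5 at 1 h. Wnt5a then had 5.54, 10.5 and 4.9 at 6 h, 6.86, 8.35 and 4.95 at 24 h and 8.04, 8.37 and 7.03 at 72 h. From 6 h on each heart was below each sham heart. It fell by 0.74 on the log2 scale at 6 h (SE 0.23, adjusted p = 0.022; lost without sham replicate 1 or 3 or without 6 h replicate 1 or 3) and by 0.79 at 24 h (SE 0.23, adjusted p = 0.00887; 0.0545 with library totals). At 72 h the log2 fold change was -0.58 ± 0.22 (adjusted p = 0.0278) with TMM and 0.01 (adjusted p = 0.985) with library totals, so that its direction at 72 h depended on the scaling. With TMM the 72 h call was lost without any 1 of the sham libraries and without 72 h replicate 1 or 3 (adjusted p = 0.0503 to 0.0932).

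Wnt2b and Wnt6, scarce ligands, were lowest at 24 h. Wnt2b had 1.57, 0.57 and 0.888 CPM in the sham hearts, 0.996, 0.84 and 0.949 at 10 min and 0.386, 0.711 and 1.34 at 1 h. Wnt2b then had 0.358, 0.574 and 0.852 at 6 h, 0.259, 0.354 and 0.619 at 24 h and 0.662, 0.639 and 0.668 at 72 h. Its groups overlapped, and the fall at 24 h, -1.32 ± 0.46 (adjusted p = 0.0281), was lost without sham replicate 1 (-0.86, adjusted p = 0.19), without 24 h replicate 1 (adjusted p = 0.099) and without 24 h replicate 2 (adjusted p = 0.081). The call was also lost with library totals (-1.12, adjusted p = 0.0575) and with the 6 libraries alone (-1.31, adjusted p = 0.065). The edgeR test over all 6 groups did not call Wnt2b (adjusted p = 0.132). Wnt6 had 0.303, 0.985 and 0.622 CPM in the sham hearts, 0.374, 0.504 and 0.279 at 10 min and 0.483, 0.533 and 0.641 at 1 h. Wnt6 then had 0.238, 0.478 and 0.746 at 6 h, 0.129, 0.212 and 0.103 at 24 h and 0.568, 0.457 and 0.509 at 72 h. Here the 24 h hearts were below all others, by -2.01 ± 0.51 against sham (adjusted p = 0.00384), on 11 counts against 39 in the sham group, and Wnt6 was back near the sham level at 72 h (-0.31 ± 0.41, adjusted p = 0.518). Wnt5b, Wnt9a and Wnt9b passed the test at no time; Wnt9b had the largest change of the 3 at 72 h, 1.10 ± 0.53 (adjusted p = 0.0744).

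**Figure D3:**
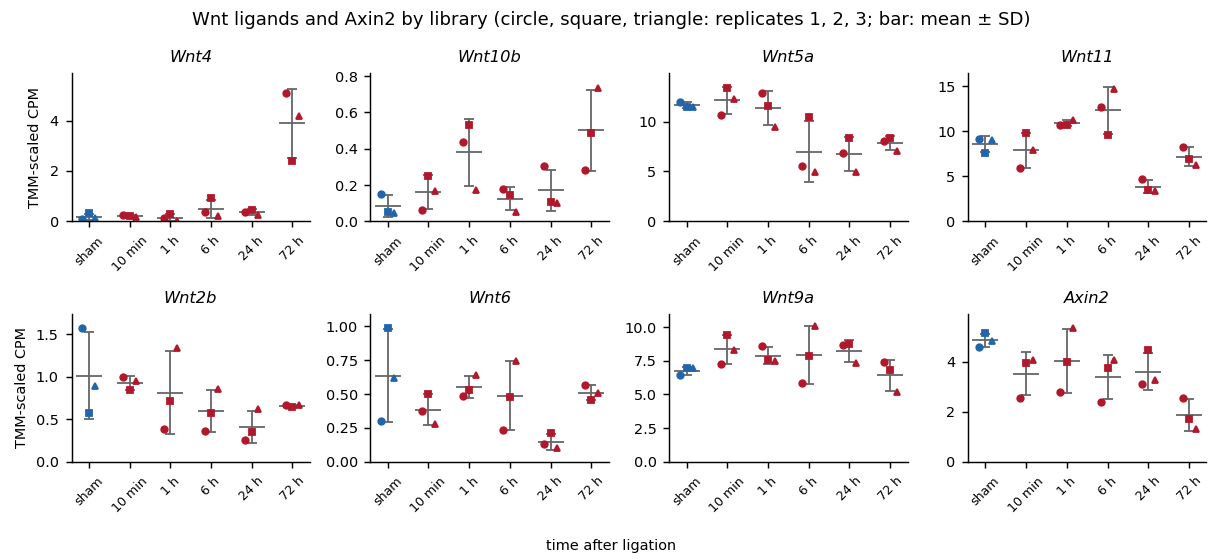
TMM-scaled CPM (linear axis from 0, its own scale in each panel) of 7 Wnt ligands and Axin2 in each library by time after ligation; circles, squares and triangles are replicates 1, 2 and 3, and the bar is the mean ± SD of 3 hearts. Wnt4 appeared at 72 h (2.41 to 5.11 CPM), Wnt11 and Wnt6 were lowest at 24 h, and Axin2 was lowest on average at 72 h (1.3 to 2.56 CPM).

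Wnt1, Wnt2, Wnt7a, Wnt16 and the R-spondin Rspo3, which keeps Frizzled receptors at the membrane, were too scarce for the test and are given by their summed counts. Wnt7a had no counts in the libraries up to 6 h, 3 at 24 h and 33 at 72 h. Wnt16 had 1 count in the sham group and 21 at 72 h, Rspo3 had 1 and 18, and Wnt1 had 2 and 17. Without the 72 h libraries these 4 genes held 3, 4, 13 and 11 counts, under the minimum of 20, so they are members only through the group where they were highest and nothing is read from that difference. Wnt2 had 9 counts in the sham group, 15 at 24 h and 38 at 72 h.

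The Frizzled receptors exchanged places. At 72 h, 8 of 9 passed the test, beside 66.4% of all genes (34.2% higher and 32.2% lower). Fzd1, Fzd2, Fzd3, Fzd5 and Fzd7 rose and Fzd4, Fzd6 and Fzd9 fell. With library totals the 5 rises and the fall of Fzd4 still passed, while Fzd6 and Fzd9 kept their sign but did not pass. Fzd4, the receptor known for its part in vessel growth, was the most abundant per length in the sham hearts at 17.0 ± 0.849 CPM per kilobase, followed by Fzd6 at 7.67 ± 0.202 and Fzd8 at 3.82 ± 0.269. The place of Fzd8 depends on the length used, which was 3346 bases as recovered from FPKM and 5974 in GENCODE M21. Fzd4 had 108, 118 and 117 CPM in the sham hearts, 129, 107 and 101 at 10 min and 150, 144 and 122 at 1 h. Fzd4 then had 132, 112 and 111 at 6 h, 90.9, 92.7 and 62.8 at 24 h and 53.5, 63.4 and 53.2 at 72 h. All hearts at 24 h and 72 h were below all sham hearts. Against sham it changed by -0.47 ± 0.14 at 24 h (adjusted p = 0.00957) and -1.01 ± 0.14 at 72 h (adjusted p = 3.82e-06); with library totals these were -0.28 (adjusted p = 0.0957) and -0.42 (adjusted p = 0.00784), and without 24 h replicate 3 the 24 h value was -0.31 (adjusted p = 0.0545). With TMM the summed endothelial markers, between 1280 and 1420 CPM in the sham hearts, were between 820 and 1060 at 72 h. Of 7 endothelial markers, 5 were lower at 72 h with TMM, while 2 were higher and 1 lower with library totals. The part of these markers in the fall of Fzd4 was not tested.

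Fzd1 rose in steps, with 9.86, 9.8 and 11.6 CPM in the sham hearts, 11.9, 15.2 and 13.6 at 10 min and 11.5, 15.2 and 11.2 at 1 h. Fzd1 then had 22.5, 23.4 and 20.5 at 6 h, 22.2, 16.7 and 28 at 24 h and 29.7, 41.1 and 31.5 at 72 h. Each heart from 6 h on was above each sham heart. The log2 fold changes were 1.08 ± 0.18 at 6 h (adjusted p = 2.22e-04; 1.07 without 6 h replicate 1, adjusted p = 0.00112), 1.09 ± 0.17 at 24 h (adjusted p = 1.09e-04) and 1.71 ± 0.17 at 72 h (adjusted p = 9.71e-08). Fzd2, a close relative of Fzd1 and Fzd7 and a receptor for Wnt5a among others, dipped first, with 7.13, 8.04 and 8.48 CPM in the sham hearts, 5.67, 10.1 and 9.55 at 10 min and 6.42, 6.16 and 6.88 at 1 h. Fzd2 then had 4.35, 6.08 and 3.73 at 6 h, 10.8, 14.6 and 9.59 at 24 h and 34.6, 39.5 and 39.9 at 72 h. At 6 h all 3 hearts were below the sham hearts and at 24 h and 72 h all were above them. It changed by -0.73 ± 0.21 at 6 h (adjusted p = 0.0137; lost without sham replicate 3, 6 h replicate 1 or 6 h replicate 3), 0.57 ± 0.20 at 24 h (adjusted p = 0.0244; lost without sham replicate 1 or 2, and with 0.37 and adjusted p = 0.15 without 24 h replicate 2) and 2.27 ± 0.20 at 72 h (adjusted p = 1.29e-08).

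The other Frizzled receptors moved less. At 72 h the log2 fold changes were 0.86 ± 0.16 for Fzd5 (adjusted p = 8.11e-05), 0.84 ± 0.16 for Fzd7 (adjusted p = 1.71e-04) and 0.75 ± 0.25 for Fzd3 (adjusted p = 0.0144; 0.65 and 0.0616 without sham replicate 2). Fzd3 was also higher at 24 h, by 0.84 ± 0.26 (adjusted p = 0.0126; 0.0544 without sham replicate 2). Fzd6 changed by -0.72 ± 0.09 with TMM (adjusted p = 1.21e-06) and by -0.14 with library totals (adjusted p = 0.259). For Fzd9 the values were -0.95 ± 0.24 (adjusted p = 0.00197) and -0.37 (adjusted p = 0.182). Fzd8 passed the test only at 6 h, with 0.60 ± 0.16 (adjusted p = 0.0101), and 0.66 without 6 h replicate 1 (adjusted p = 0.0145); it was 0.33 without 6 h replicate 3, which had the highest value (25.8 CPM), and no longer passed (adjusted p = 0.0781).

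**Figure D4:**
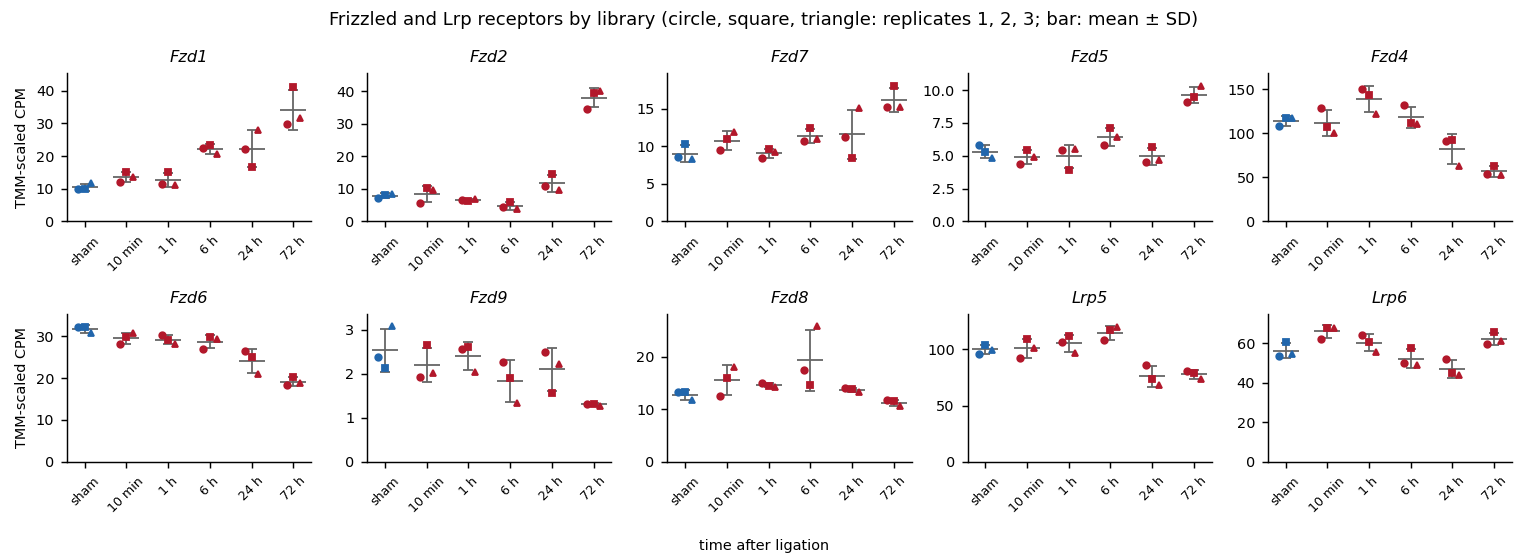
TMM-scaled CPM (linear axis from 0, its own scale in each panel) of 8 Frizzled receptors, Lrp5 and Lrp6 in each library by time after ligation; circles, squares and triangles are replicates 1, 2 and 3, and the bar is the mean ± SD of 3 hearts. On average Fzd1, Fzd2, Fzd7 and Fzd5 were highest at 72 h and Fzd4, Fzd6 and Fzd9 lowest on this scale (with library totals Fzd6 was not lower at 72 h than at 24 h), while Fzd8 was highest in 6 h replicate 3 (25.8 CPM).

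The shares of each receptor within a library do not depend on how libraries are scaled. Per length, the 9 Frizzled transcripts together came to 37.1 ± 0.998 CPM per kilobase in the sham hearts and 40.6 ± 3.43 at 72 h, and the ranges (35.9 to 37.9 and 37.8 to 44.5) overlapped. That sum does depend on the scaling: with library totals it was 34.4 ± 1.43 and 56.6 ± 5.18, with ranges of 32.9 to 35.8 and 51.3 to 61.7. Fzd4 made up 45.8% ± 1.10 of the sum in the sham hearts, 34.7% ± 5.51 at 24 h and 20.8% ± 0.679 at 72 h. Fzd6 went from 20.7% ± 0.914 to 11.4% ± 0.338 at 72 h. Fzd2 went the other way, from 5.8% ± 0.395 through 3.14% ± 0.875 at 6 h (2.81% in the library that carried atrial transcripts, 4.13% and 2.47% in the others) and 9.08% ± 1.85 at 24 h to 25.6% ± 1.71 at 72 h. Fzd1 went from 6.71% ± 0.648 to 12.8% at 6 h (12.7% in that library, 13.9% and 11.8% in the others) and 19.9% ± 1.86 at 72 h. At 72 h Fzd2 had the highest share of the 9, with all 3 hearts (24.2% to 27.5%) above the Fzd4 share (at most 21.2%); Fzd4 and Fzd1 (18.7% to 22.0%) did not differ beyond their spread.

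**Figure D5:**
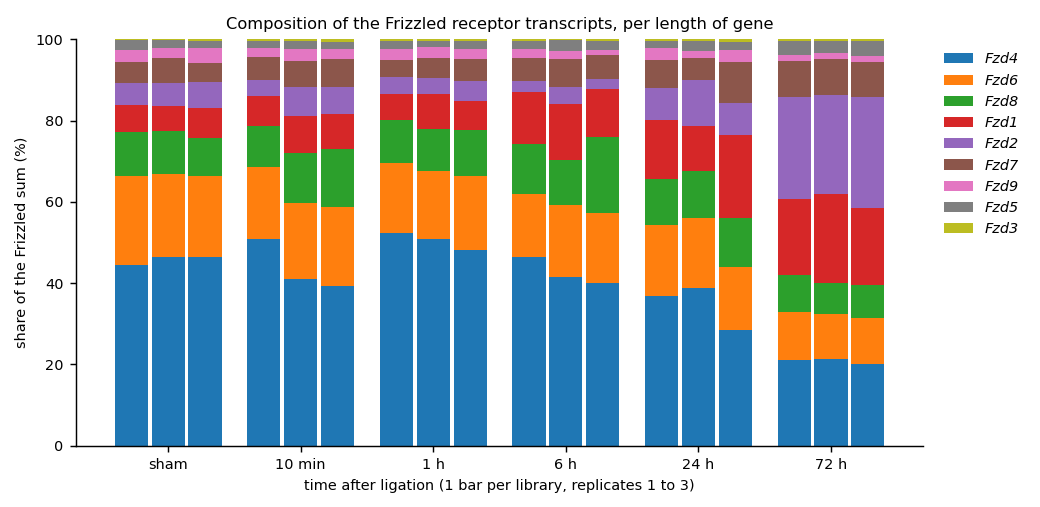
Share (%) of each Frizzled gene in the sum of the 9 Frizzled transcripts per length, 1 stacked bar for each of the 18 libraries, by time after ligation. The Fzd4 share (bottom, blue) was 45.8% in the sham hearts and 20.8% at 72 h on average, and the Fzd1 and Fzd2 shares (red and purple) grew to 19.9% and 25.6%.

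The coreceptors changed little. Lrp5 had 96.1, 104 and 99.9 CPM in the sham hearts, 92.5, 109 and 101 at 10 min and 107, 112 and 97 at 1 h. Lrp5 then had 108, 117 and 120 at 6 h, 86.1, 74 and 68 at 24 h and 80.8, 79.2 and 73.3 at 72 h. At 24 h and 72 h all hearts were below the sham hearts on this scale. It changed by -0.39 ± 0.10 at 24 h (adjusted p = 0.00301; -0.20 and 0.122 with library totals) and by -0.36 ± 0.10 at 72 h (adjusted p = 0.00271), where library totals turned the value to 0.22 (adjusted p = 0.0599). Lrp6 had 53.7, 60.5 and 54.5 CPM in the sham hearts, 62.4, 68 and 67.8 at 10 min and 64.2, 60.8 and 55.7 at 1 h. Lrp6 then had 49.9, 57.8 and 49.2 at 6 h, 52.3, 44.9 and 43.8 at 24 h and 59.6, 65.8 and 61.1 at 72 h. Its change at 24 h, -0.26 ± 0.09, was just past the threshold (adjusted p = 0.0312) and was lost under 10 of the other settings, among them each of sham replicates 2 and 3 and 24 h replicates 2 and 3 left out. Rspo1, the other R-spondin, had 0.849 ± 0.220 CPM in the sham hearts and 1.07 ± 0.746 at 72 h, when 1 heart (1.92) was well above the other two (0.7 and 0.573), and it did not pass against sham (0.33 ± 0.39, adjusted p = 0.475).

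Axin2, a scaffold of the beta-catenin destruction complex that beta-catenin itself induces, had 4.6, 5.13 and 4.84 CPM in the sham hearts, 2.55, 3.95 and 4.08 at 10 min and 2.8, 3.97 and 5.36 at 1 h. Axin2 then had 2.38, 3.73 and 4.05 at 6 h, 3.11, 4.46 and 3.25 at 24 h and 2.56, 1.71 and 1.3 at 72 h. The sham hearts were close together. All 3 hearts lay below them at 72 h, and also at 10 min, 6 h and 24 h, while those at 1 h overlapped them. Only the difference at 72 h passed the test against sham. The log2 fold change at 72 h was -1.39 ± 0.28 (adjusted p = 2.61e-04), and -0.81 (adjusted p = 0.0177) with library totals. From 24 h to 72 h it fell by 0.96 on the log2 scale (SE 0.28, adjusted p = 0.00799), a step that did not pass with library totals (adjusted p = 0.0962).

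Other transcripts often read as signs of beta-catenin signalling did not follow Axin2. Of 9 tested on that list, 5 rose, only Axin2 fell and 3 did not pass at 72 h. Over all genes, 34.2% were higher and 32.2% lower. With library totals 8 rose and Axin2 fell. Ccn4, also called Wisp1, rose by 4.28 ± 0.24 (1.72 ± 0.440 CPM in the sham hearts and 33.6 ± 5.15 at 72 h, adjusted p = 7.18e-11), Nkd2, which restrains Dishevelled, by 2.52 ± 0.27 (adjusted p = 1.42e-07), and Ccn5 by 2.25 ± 0.28 (adjusted p = 3.09e-06). The list's median log2 fold change was 0.57, beside 0.03 over all genes.

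Counts for the other pathway genes at 72 h stand beside 34.2% of all genes higher and 32.2% lower, and most lists changed their split of higher and lower calls with library totals. Of 4 tested genes for Wnt secretion and its extracellular modifiers, 3 rose: Gpc6 by 1.35 ± 0.15 (adjusted p = 3.4e-07), Wls, the carrier that takes Wnt proteins to the cell surface, by 0.84 ± 0.11 (adjusted p = 3.43e-06) and Gpc4 by 0.42 ± 0.10 (adjusted p = 0.00138). Of 13 coreceptors and planar polarity genes, 3 rose and 6 fell (7 and 3 with library totals). The Wnt5a coreceptor Ror2 rose by 1.84 ± 0.26 (adjusted p = 5.66e-06) and Ptk7 by 2.26 ± 0.18 (adjusted p = 6.2e-09), whereas the polarity genes Celsr2 (-1.76 ± 0.18, adjusted p = 8.28e-08) and Prickle1 (-1.70 ± 0.14, adjusted p = 7.62e-09) fell. Of 3 tested R-spondin receptors and ligases, 2 fell: Lgr6 by -1.55 ± 0.17 (adjusted p = 4.35e-07) and Lgr4 by -0.74 ± 0.11 (adjusted p = 8.71e-06). With library totals 1 was higher and 1 lower: Lgr6 still fell (-0.96, adjusted p = 5.67e-05), while Lgr4 did not pass (-0.15, adjusted p = 0.231).

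Among 5 other antagonists of the receptor complex 2 fell (1 rose and 1 fell with library totals), led by Kremen1, a Dickkopf receptor, at -0.84 ± 0.12 (adjusted p = 5.24e-06). Sost, which codes for sclerostin, an inhibitor of Lrp5 and Lrp6, did not pass at 72 h (-0.64 ± 0.40, adjusted p = 0.171) but was lower at 24 h (-3.35 ± 0.55, adjusted p = 1.32e-04). In the destruction complex and Dishevelled list 2 of 10 rose and 4 fell with TMM, but 6 rose and none fell with library totals; Apc2 changed by -1.02 ± 0.25 (adjusted p = 0.00147, and 0.148 with library totals), Dvl2 by 0.49 ± 0.15 (adjusted p = 0.00635) and Axin1 by 0.41 ± 0.08 (adjusted p = 3.49e-04). Of 12 tested beta-catenin partners 3 rose and 3 fell (9 and 1 with library totals): Tcf7 rose by 1.36 ± 0.35 (adjusted p = 0.00204), Tle3 by 0.89 ± 0.22 (adjusted p = 0.00224), and Pygo1 fell by 1.27 on the log2 scale (SE 0.21, adjusted p = 4.24e-05). With TMM Ctnnb1, beta-catenin itself, did not pass at 72 h (0.04 ± 0.09, adjusted p = 0.749), at 333 ± 4.92 CPM in the sham hearts and 341 ± 18.2 at 72 h. Its 72 h value is given with TMM only, and library totals moved the all-gene median there from 0.03 to 0.61. At 24 h Ctnnb1 was lower with TMM (-0.25, adjusted p = 0.0307) but did not pass with library totals (-0.06, adjusted p = 0.649).

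Between consecutive times the step from 24 h to 72 h was the largest. From 10 min to 1 h no member passed, against 0.307% of all genes, 0.251% higher and 0.0552% lower (3 of 30 had an unadjusted p under 0.05 by edgeR, beside 7.43% of all genes, and DESeq2 called none). From 1 h to 6 h, 3 of 30 passed against 24.5% (14.5% higher and 10% lower), with Frzb and Fzd1 higher and Wnt5a lower. The call of Wnt5a was lost without 1 h replicate 1 or 2 or 6 h replicate 1 or 3 (adjusted p = 0.0843 to 0.145). From 6 h to 24 h, 8 passed against 27.8% (14.2% higher and 13.7% lower), with Fzd2 higher and 7 lower, and 4 were lower without 24 h replicate 3. Without 6 h replicate 1 there were again 1 higher and 7 lower. With library totals 3 were higher and 3 lower. From 24 h to 72 h, 21 passed against 50.5% (24.4% higher and 26.1% lower), with 16 higher and 5 lower, and 3 were lower without 24 h replicate 1, 72 h replicate 2 or 72 h replicate 3. With library totals 18 were higher and 0 lower in that step. In that last step Sfrp2 rose by 4.97 ± 0.37 (adjusted p = 4.82e-08), Sfrp1 by 4.12 ± 0.18 (adjusted p = 1.73e-11), Dkk3 by 3.99 ± 0.80 (adjusted p = 9.19e-04) and Wnt4 by 3.35 ± 0.47 (adjusted p = 1.14e-05). Dkk2, Sfrp4, Wnt4 and Wnt10b passed the filter on low counts only through the 72 h libraries. Nothing is read from their part in this step. Rspo1 rose in it by 1.12 ± 0.41 (adjusted p = 0.0305), which was 0.38 without 72 h replicate 1 (adjusted p = 0.416) and lost the call without 24 h replicate 1 or 3. The comparisons against sham share the sham hearts, and consecutive steps share the middle group, so their values are not independent. A test over all 6 groups at once called 25 of 30 members, against 78.4% of all genes.

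Some counts may be shared with neighbours: exons of Sfrp2, Fzd5, Fzd6, Wnt5a, Wnt11, Rspo3 and Axin2 overlap a gene on the opposite strand, by 3.15% to 17.8% of the member's exon length, and whether the counting used the strand is not given in the sources used here. The overlapping genes had between 0 and 76 counts in the 18 libraries together.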

How the data were processed

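The values are deposited counts of reads per gene, from poly(A) RNA libraries made without molecular identifiers, and the authors' FPKM of the same libraries. Per the submitters' processing notes, cutadapt 1.18, HISAT2 2.1.0, featureCounts and the mm10 build were used; strand and annotation are not given in the sources used here. Gene symbols came from GENCODE M21 (30512 of 30583 identifiers matched). The deposited FPKM columns of 6 h replicates 2 and 3 matched each other's counts; both belong to 1 group. Gene lengths were recovered from FPKM and counts, and the sums and shares per length use these. They differed from the GENCODE M21 exon lengths for Fzd8 (3346 against 5974 bases), Fzd6 (4134 against 4818) and Wnt10b (2334 against 3401). In R 4.3.3, edgeR 4.0.16 (TMM, filterByExpr, robust quasi-likelihood, 1 mean per group, all 18 libraries) tested 16311 genes and left out 14272; tests were two-sided, adjusted by Benjamini-Hochberg over all tested genes. The script was tested on simulated data. DESeq2 1.42.0 and limma 3.58.1 (on log2 of FPKM plus a pseudocount) were alternatives, beside other scalings, filters, the replicate number as a block and leaving out each library. Replicates are separate mice, per the labels, and p-values measure the spread between 3 mice per group. Members with at least a 2-fold called change, Axin2, Lrp5 and Lrp6 are given in every library, and Wnt5a was added after its values were seen; of each pathway list up to 3 called genes with the largest change at 72 h, and any of opposite direction, could be named. Ctnnb1 and Sost were added after their values were seen. The members and the gene lists were chosen with earlier results of these data known. DNA methylation was not analysed here. One marker list is not reported here.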

Additional observations from a re-analysis of the deposited data

Results flagged for a closer look

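The 3 members named here passed the test one way against sham at one time and the other way at the next time, with the difference between the 2 times also passing. Fzd2 was below sham at 6 h and above it at 24 h, and the log2 fold change from 6 h to 24 h was 1.30 ± 0.21 (SE, edgeR adjusted p = 2.36e-04). Without 6 h replicate 1 it was 1.25 (adjusted p = 0.00141). Both single calls against sham were lost when 1 library was left out, as given above. Sfrp1 was below sham at 24 h and above it at 72 h, with a difference of 4.12 ± 0.18 between these times (adjusted p = 1.73e-11). Its 24 h call against sham was lost without sham replicate 3 (adjusted p = 0.0809), without 24 h replicate 3 (0.0531), with library totals (0.0928) and with the 6 libraries alone (0.0576). Wnt11 was above sham at 6 h and below it at 24 h, with a difference of -1.67 ± 0.20 (adjusted p = 1.80e-05), which was -1.65 without 6 h replicate 1 (adjusted p = 7.98e-05). Its rise at 6 h was lost when 1 library was left out, as given above.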

How the results depend on the processing

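With 3 hearts per group, changes of low-count members are the least certain. Of the 73 called values of single members (41 against sham), all kept sign and call with RLE size factors, 68 without a filter on low counts (5 lost), 70 of 71 with DESeq2, and 71 with the replicate block (2 lost, Wnt11 at 6 h among them, adjusted p = 0.0582). The numbers 1 to 3 name separate mice: over 45 pairs of libraries with the same number, deviations from group means correlated at 0.0156 on average (-0.256 to 0.252), against -0.0075 over 90 other pairs, and 9 of 18 libraries correlated best with their own number. Library totals lost 17 and reversed 4 values: Fzd6 (0.05 from 6 h to 24 h and 0.06 from 24 h to 72 h), Lrp5 at 72 h (0.22) and Wnt5a at 72 h (0.01). limma on deposited FPKM, which has no TMM step, reversed the same 4, at 0.04, 0.06, 0.20 and 0.00 with a pseudocount of 1 and a filter on low values, 0.05, 0.07, 0.22 and 0.00 with 0.1, and 0.04, 0.06, 0.20 and 0.00 unfiltered. The limma fits lost 18 to 23 more, fits on the 6 libraries compared 15 of 69 and the filter of 10 counts 0 of 58. Leaving out 1 library lost 86 of 1314 and reversed 0.

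Counts that moved were as follows. With library totals, members lower were 3 at 24 h and 4 at 72 h against sham, 2 from 1 h to 6 h, 3 from 6 h to 24 h (with 3 higher) and 0 from 24 h to 72 h. With limma (pseudocounts 1 and 0.1 alike), 2 were higher at 6 h, 3 lower at 24 h and 4 lower at 72 h against sham, 2 higher and 3 lower from 6 h to 24 h, and 0 lower from 24 h to 72 h; unfiltered, 2 were higher and 1 lower at 6 h, 2 lower at 24 h, 22 higher and 4 lower at 72 h, 0 lower from 1 h to 6 h, 2 lower from 6 h to 24 h and 0 lower from 24 h to 72 h. With only the 6 libraries compared, 1 was higher at 10 min, 1 lower at 6 h, 6 lower at 24 h, 0 lower from 1 h to 6 h, 2 lower from 6 h to 24 h and 2 lower from 24 h to 72 h. DESeq2 called 2 lower from 1 h to 6 h. With at least 10 counts in every library, 10 were higher from 24 h to 72 h, where fewer members (21) were tested. For the other moved counts the cause was not tested.

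Leaving out 1 library in turn gave 0 higher and 0 lower at 10 min, 0 to 1 higher and 0 lower at 1 h, 3 to 5 higher and 0 to 2 lower at 6 h, 2 to 4 higher and 7 to 10 lower at 24 h, and 13 to 15 higher and 7 to 8 lower at 72 h against sham. At 6 h none was lower without sham replicate 3, 6 h replicate 1 or 6 h replicate 3 and 1 was without sham replicate 1; at 24 h 2 were higher without sham replicate 2. Between times it gave 0 and 0 from 10 min to 1 h, 2 to 3 higher and 0 to 4 lower from 1 h to 6 h (0 lower without 1 h replicate 1, 1 h replicate 2 or 6 h replicate 3; 2 without sham replicate 3, 1 h replicate 3, 24 h replicate 1 or 24 h replicate 3; 4 without 6 h replicate 2), 1 higher and 4 to 7 lower from 6 h to 24 h, and 14 to 16 higher and 3 to 5 lower from 24 h to 72 h. The test over all groups gave 24 to 25. Lists and class sums with library totals, and the class shares without 1 library, were added after seeing the data.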
